A study of Mus musculus with 8 samples.

Results

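Levels of 10 genes linked to the contractile myoepithelial cell and to the matricellular proteins around it were described in organoids from mouse PyMT mammary tumors. The genes were chosen by name, not by a cutoff on their values, but with earlier results of these data known. All 10 had a row among the 38293 gene identifiers of the bulk counts. They comprise the oxytocin receptor gene Oxtr, the contractile genes Acta2, Myh11 and Mylk, the calponins Cnn1 and Cnn2, the transgelins Tagln and Tagln2, and the matricellular genes Sparc and Postn. The organoids came from tumors of mice with 3 alleles that the controls carry as well, MMTV-PyMT (the polyoma middle T oncogene), MMTV-Cre and Ecadherin-mCFP (E-cadherin with a fluorescent tag), where the MMTV promoter drives expression in mammary epithelium. Control and SOX4KO lines were both made with CRISPR/Cas9. All were collected 4 days after being split to single cells, in medium with B27 and FGF2. Bulk RNA-sequencing covered 2 control lines (WT1 and WT3) and 3 SOX4KO lines (H7, M4 and H4), and single-cell RNA-sequencing covered 1 control library (GR17) and 2 SOX4KO libraries (GR18 and GR19). The labels do not say whether a line is a single clone, nor which bulk line a single-cell library corresponds to, and p-values measure the spread between these libraries only.

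Myoepithelial cells form the basal layer of the mammary duct and share with smooth muscle a program of actin, myosin and their regulators. Oxytocin, released at suckling, binds its receptor on these cells and raises calcium through Gq proteins and phospholipase C, after which calmodulin activates myosin light chain kinase and the cells contract to eject milk. Matricellular proteins are secreted into the matrix and alter how cells attach to it, without being a main structural component, and both Sparc and Postn are best known from stroma and wounds.

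Each bulk library had between 3050323 and 4678497 reads on genes, which was 16.1% to 28.4% of all reads in the tables, while 45.7% to 52.9% aligned to more than 1 place and 25.3% to 30.4% lay outside annotated genes. Control lines had a normalized Sox4 level of 295 and 374 CPM (counts scaled to a common library size) and SOX4KO lines of 179 to 299 CPM, groups that overlapped through H4 (log2 fold change −0.57, SE 0.25, Benjamini-Hochberg adjusted p = 0.277, edgeR). Read counts over the whole gene do not show whether its reading frame was disrupted. The single-cell libraries held 369, 369 and 362 cells with at least 1000 UMIs (unique molecular identifiers, 1 per captured transcript), with medians of 19845 to 21876.5 UMIs per cell. The 384 well names are plate positions and are the same in all 3 libraries. Keratins of both layers were present, and 5 of 5 endothelial, 4 of 5 immune and 6 of 9 fibroblast markers were too low to be tested in bulk.

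The promoters of the members with the 3 largest bulk differences are shown, because a shared regulatory sequence would be looked for there. They are RefSeq windows of GRCm38.p6 from 250 bases before to 50 bases after the annotated start, written on the strand of the gene, and 8 of the 10 genes had a window. Oxtr lies at chr6:112489776-112490075 on the minus strand, Cnn2 at chr10:79988350-79988649 on the plus strand and Sparc at chr11:55420031-55420330 on the minus strand, and capitals mark a CArG box, the site bound by serum response factor in smooth muscle genes.
Oxtr: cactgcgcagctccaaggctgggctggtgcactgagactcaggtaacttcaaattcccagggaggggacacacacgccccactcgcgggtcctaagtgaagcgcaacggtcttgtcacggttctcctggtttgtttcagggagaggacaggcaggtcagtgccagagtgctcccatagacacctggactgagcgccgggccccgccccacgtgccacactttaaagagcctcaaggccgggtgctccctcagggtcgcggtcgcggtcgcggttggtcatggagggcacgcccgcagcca
Cnn2: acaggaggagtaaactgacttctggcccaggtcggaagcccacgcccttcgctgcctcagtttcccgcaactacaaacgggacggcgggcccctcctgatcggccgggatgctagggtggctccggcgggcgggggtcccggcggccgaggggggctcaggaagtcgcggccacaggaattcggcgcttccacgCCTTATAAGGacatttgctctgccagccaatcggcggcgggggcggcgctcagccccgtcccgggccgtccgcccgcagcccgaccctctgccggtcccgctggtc
Sparc: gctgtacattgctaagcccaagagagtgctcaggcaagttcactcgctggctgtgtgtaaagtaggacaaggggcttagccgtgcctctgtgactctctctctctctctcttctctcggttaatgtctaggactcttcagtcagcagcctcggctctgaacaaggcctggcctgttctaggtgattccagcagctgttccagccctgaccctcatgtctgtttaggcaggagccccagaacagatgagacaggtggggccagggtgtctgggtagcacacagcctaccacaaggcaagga

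Both strands were searched for the CArG box and for AACAAAG and AACAATG, a pair of sequences of the kind bound by SOX factors. The CArG box was taken only in the exact form CCWWWWWWGG, with W for A or T, and no matches overlapped. A CArG box of this form was present in the window of Cnn2, where CCTTATAAGG began 56 bases before the start, and in 1.63% of all 32851 windows. Near matches were not searched for, and the Acta2 window held ccctatatgg, which departs from the exact form by a C. AACAAAG was found in 5.85% of all windows and AACAATG in 3.78%, and among the members only the window of Cnn1 held either of them, an AACAATG 148 bases before the start. These letters were not found in the Oxtr and Sparc windows, which says nothing of sites elsewhere.

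Per length of transcript, the members differed widely in level in bulk. Mean RPKM (counts scaled to exon length and library size) over the 5 lines was 678 for Sparc and 385 for Postn, 44.4 for Tagln2 and 43.2 for Cnn2, 13.2 for Mylk and 2.87 for Oxtr. Sparc and Postn overlapped across lines, with RPKM of 193 to 1410 and 172 to 550, as did Tagln2 (29.6 to 64.7) and Cnn2 (up to 66.4). Mylk (8.99 to 17.1) lay below both in every line, and Oxtr (0.811 to 5.11) below Mylk. The remaining genes had a mean of 0.318 RPKM (Tagln), 0.303 (Acta2), 0.0438 (Cnn1) and 0 (Myh11), and their ranges overlapped.

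The receptor gene showed the largest difference of the members. Oxtr (ENSMUSG00000049112, GRCm38 chromosome 6 from 112473683 to 112489943, minus strand) encodes the Gq-coupled receptor for oxytocin. It had 15 reads in WT1 and 28 in WT3, against 57 in H7, 68 in M4 and 83 in H4. On the normalized scale these were 3.88 and 5.58 CPM in the control lines and 14.9, 24.5 and 19.9 CPM in the SOX4KO lines. All 3 SOX4KO lines lay above both control lines, and the lowest of them was more than 2-fold above the higher control line. The means were 4.73 ± 1.20 CPM (SD, n = 2) and 19.7 ± 4.80 CPM (SD, n = 3), a log2 fold change of 2.03 (SE 0.34) that passed the threshold of 0.1 (edgeR, Benjamini-Hochberg adjusted p = 0.0256 over 11682 genes). The call was lost when either control line was left out, with adjusted p = 0.163 without WT1 and 0.165 without WT3 in edgeR, while the fold change stayed between 1.81 and 2.33 on the log2 scale over the 5 leave-outs. The level remained low in absolute terms, at most 5.11 RPKM.

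Of the signal chain around the receptor no gene passed the test. The oxytocin signalling list held 17 genes, the ligand, the related vasopressin receptor, the Gq alpha subunits, phospholipase C beta enzymes, calcium channels of the endoplasmic reticulum, calmodulins and others, of which 14 were tested. None was called in edgeR, 1 had an unadjusted p under 0.05, and DESeq2 called 1. Over all genes tested, edgeR called 6.27%, 2113 of 11682 had an unadjusted p under 0.05, and DESeq2 called 7.37%. With 14 genes, a count of 0 is not set apart from the edgeR share. The median log2 fold change was 0.09, against 0.01 over all genes tested. The ligand gene Oxt and the receptor gene Avpr1a had no read in any line. Plcb1, a phospholipase C of the Gq pathway named here after its values were seen, had 19.9 and 27.9 CPM in the control lines and 58.7, 31.7 and 49.6 CPM in H7, M4 and H4, groups that did not overlap (log2 fold change 0.96, SE 0.29, adjusted p = 0.127 in edgeR).

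The genes that define the contractile state of smooth muscle were close to absent. Acta2, the smooth muscle alpha-actin used to stain myoepithelium, had 3 and 5 reads in the control lines and 0, 3 and 2 reads in H7, M4 and H4. Myh11, the smooth muscle myosin heavy chain, had 0 reads in all 5 lines, so its level was under 0.597 to 1.08 CPM, which 3 reads would give. Cnn1, the calponin of differentiated smooth muscle, had 0 reads in both control lines and 0, 1 and 1 reads in the SOX4KO lines. Tagln, also called SM22, had 1 and 4 reads against 3, 3 and 1. These 4 genes fell under the filter on low counts, and at this depth no difference between the groups could be detected in them. The transcripts that define contractile myoepithelium were thus at or near 0 in both genotypes, and the set is called by its genes below.

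Mylk, the kinase that phosphorylates myosin light chain, was the contractile member that was well measured, with 391 and 682 reads in the control lines and 738, 386 and 727 reads in H7, M4 and H4. After normalization these were 101 and 136 CPM against 193, 139 and 174 CPM. The groups did not overlap, but M4 exceeded WT3 by little. The means were 119 ± 24.5 CPM (SD, n = 2) and 169 ± 27.2 CPM (SD, n = 3), and the log2 fold change of 0.51 (SE 0.21) did not pass the test (edgeR, Benjamini-Hochberg adjusted p = 0.261).

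The calponin and transgelin genes of non-muscle cells stood at much higher levels than their smooth muscle relatives. Cnn2, an actin-binding calponin of many cell types, had 83.1 and 49.2 CPM in WT1 and WT3 and 163, 147 and 89.6 CPM in H7, M4 and H4. The SOX4KO lines lay above the control lines, with H4 only slightly above WT1. The means were 66.1 ± 24.0 CPM (SD, n = 2) and 133 ± 38.7 CPM (SD, n = 3). The log2 fold change of 1.01 (SE 0.31) missed the threshold (adjusted p = 0.136 in edgeR), although it was called by DESeq2 (adjusted p = 0.0441) and by edgeR without H4 (adjusted p = 0.0462). Tagln2, an actin-bundling transgelin of non-muscle cells, had 95.8 and 61.5 CPM in the control lines and 76.7, 135 and 93.2 CPM in the SOX4KO lines. These groups overlapped, with means of 78.7 ± 24.2 (SD, n = 2) and 101 ± 29.8 CPM (SD, n = 3), and the log2 fold change of 0.37 (SE 0.28) did not pass (adjusted p = 0.567 in edgeR).

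Sparc rose in the SOX4KO lines. Sparc (ENSMUSG00000018593, GRCm38 chromosome 11 from 55394500 to 55423183, minus strand) encodes osteonectin, a secreted protein that binds collagen and calcium. It had 1302 and 732 CPM in WT1 and WT3 and 3763, 5343 and 1692 CPM in H7, M4 and H4. Every SOX4KO line lay above both control lines, and H4 was nearer to WT1 than to H7 or M4. The means were 1017 ± 403 CPM (SD, n = 2) and 3599 ± 1830 CPM (SD, n = 3), with a spread among SOX4KO lines larger than the control mean. The log2 fold change was 1.82 (SE 0.48, edgeR, Benjamini-Hochberg adjusted p = 0.0891). The call was lost without WT1, WT3, H7 or M4, with adjusted p of 0.215, 0.599, 0.149 and 0.127 in edgeR, and kept without H4 (0.0149). DESeq2 gave an adjusted p of 0.0586.

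Postn, which encodes periostin, a secreted ligand of integrins, varied as much within a genotype as between genotypes. It had 4337 CPM in WT1 and 1667 in WT3, and 4444, 4786 and 1500 CPM in H7, M4 and H4. WT1, H7 and M4 were high and WT3 and H4 low, so that the lines split across genotype. The means were 3002 ± 1888 CPM (SD, n = 2) and 3577 ± 1806 CPM (SD, n = 3). The log2 fold change of 0.25 (SE 0.53, adjusted p = 0.859 in edgeR) turned to −0.28 without WT3 and −0.02 without M4.

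**Figure D1:**
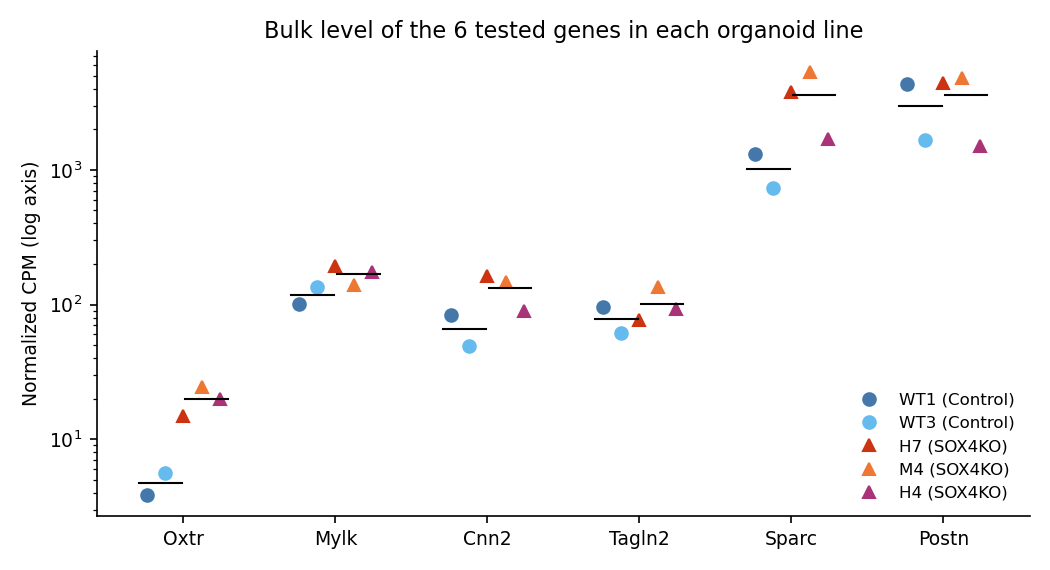
Normalized CPM on a log axis for the 6 members that passed the filter on low counts. Each point is 1 organoid line (circles, control; triangles, SOX4KO) and each black line is a group mean; the SOX4KO points lie above both control points for Oxtr, Mylk, Cnn2 and Sparc, and the groups overlap for Tagln2 and Postn.

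In all, 6 of the 10 genes passed the filter and 2 of them, Oxtr and Sparc, were called higher and 0 lower, where edgeR called 6.27% of all genes tested, 4.1% higher and 2.17% lower. All 3 SOX4KO lines exceeded both control lines for 4 of the 6 genes, against 19% of all genes tested, with 17.9% below both and 36.9% apart in either direction. DESeq2 called 3 of the members, Cnn2 in addition, and 7.37% of the genes it tested. The members and the lists of related genes were chosen with earlier results of these data known. Their counts beside these shares are therefore descriptions and no test of the set. The 4 genes left out had too few reads to be placed on either side. In bulk RNA, more cells that express a gene and more RNA of it per cell cannot be told apart.

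Few other genes of the contractile apparatus passed the test. Of 36 contractile partners (myosin light and heavy chains, tropomyosins, actin-binding proteins and the serum response factor with its cofactors, among others), 29 were tested, 3 were called higher and 0 lower, and 22 had a positive log2 fold change, with a median of 0.23. Among the 11682 genes of the whole table, 5941 had a positive value, with a median of 0.01, and 4.1% passed as higher. Tpm2, a tropomyosin that lies along the actin filament, had 34.4 and 27.3 CPM in the control lines and 130, 127 and 56.0 CPM in H7, M4 and H4 (log2 fold change 1.76, SE 0.37, adjusted p = 0.0457 in edgeR). Its groups did not overlap, and H4 was again the lowest SOX4KO line. Pdlim5 and Pdlim7, PDZ and LIM domain proteins of the actin cytoskeleton, had log2 fold changes of 0.89 (SE 0.19, adjusted p = 0.0516) and 0.80 (SE 0.20, adjusted p = 0.0697) in edgeR. Srf, the gene of serum response factor itself, had a log2 fold change of 0.23 that did not pass (adjusted p = 0.56 in edgeR), and its cofactor gene Myocd had no read.

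The other matricellular genes included the largest difference of the lists. Of 29 listed, 14 were tested, 3 were called higher and 0 lower, 11 were positive, and the median log2 fold change was 0.67, to be read beside the same values over all genes. Spp1, which encodes osteopontin, had 175 and 77.5 CPM in WT1 and WT3 and 1095, 1410 and 4854 CPM in H7, M4 and H4, and all SOX4KO lines were far above the control lines (log2 fold change 4.28, SE 0.76, adjusted p = 0.0298 in edgeR). H4, the SOX4KO line with the lowest Sparc and Postn, was the one with the highest Spp1. Fbln2, a fibulin of basement membranes, and Thbs2, a thrombospondin, had log2 fold changes of 1.24 (SE 0.30, adjusted p = 0.0697) and 0.82 (SE 0.21, adjusted p = 0.079) in edgeR.

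**Figure D2:**
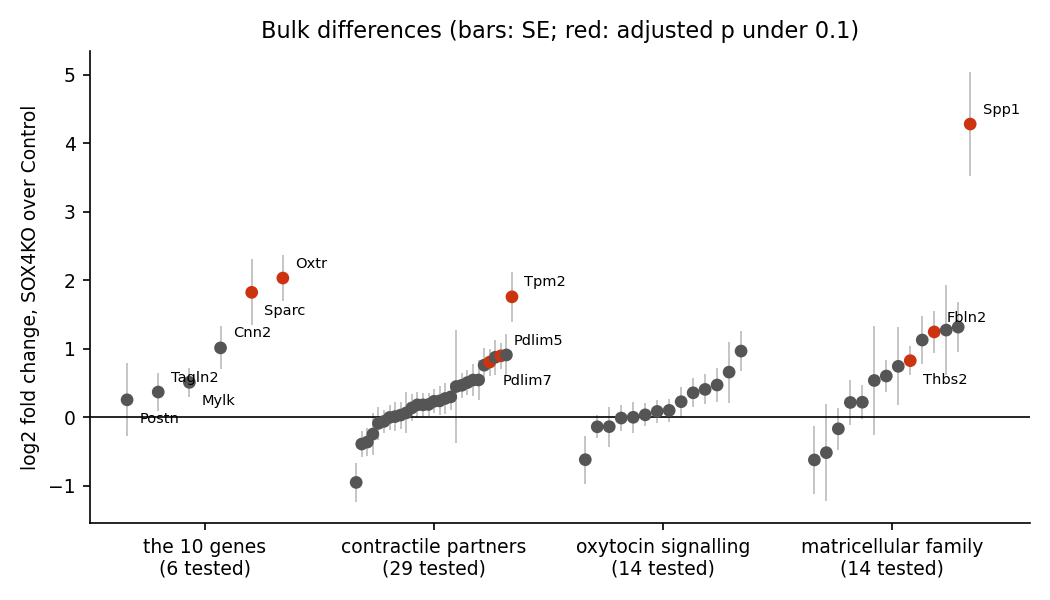
Log2 fold change of SOX4KO over control lines in edgeR for the members and the 3 lists of related genes, 1 point per gene tested with its SE as a bar, sorted within each list. Red points passed an adjusted p of 0.1; these are Oxtr and Sparc among the members, Tpm2, Pdlim5 and Pdlim7, and Spp1, Fbln2 and Thbs2, and none of the 14 oxytocin signalling genes.

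Lineage and stromal markers in bulk are set beside these differences, and their counts of calls stand beside the 4.1% of all genes called higher and 2.17% called lower. The summed level of the 10 basal markers was 1608 to 1807 CPM in the control lines and 2468 to 3056 CPM in the SOX4KO lines, with 1 of 9 tested called higher, and that of the 15 luminal markers was 3459 to 3578 CPM against 2524 to 3110 CPM, with 1 of 12 called lower. The summed level of 5 cycling markers was 379 to 435 CPM against 192 to 282 CPM, with 3 of 5 called lower. The 9 fibroblast markers summed to 200 to 309 CPM against 121 to 138 CPM, most of it Col1a1, which was called lower (log2 fold change −1.39, SE 0.32, adjusted p = 0.0624 in edgeR), and Col1a2 had at most 9 reads in a line. The 7 pericyte and vascular smooth muscle markers summed to 110 to 122 CPM against 109 to 180 CPM, with Rgs5 at 0 or 1 read, the 5 endothelial markers to 1.04 to 1.79 CPM against 1.68 to 2.52 CPM, and the 5 immune markers to 1.59 to 1.81 CPM against 2.16 to 14.4 CPM. The part of these markers in the results for Oxtr and Sparc was not tested.

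In single cells the summed UMIs of each library gave a level for each member, and with 1 control library no test was run. Intervals on these values are 95% and cover counting error only. Oxtr gave 1 UMI in the 369 control cells, 42 UMIs in 27 of the 369 cells of GR18 and 46 UMIs in 32 of the 362 cells of GR19. These are 0.13, 5.24 and 5.54 CPM, ratios to control of 40.5 (exact interval 6.87 to 1635) and 42.8 (7.30 to 1726). Both SOX4KO libraries were thus above the control library by more than counting error. The share of cells with an Oxtr UMI was 0.271% (exact Clopper-Pearson interval 0.00686 to 1.50) in GR17, 7.32% (4.88 to 10.5) in GR18 and 8.84% (6.13 to 12.2) in GR19. After thinning each cell to 8000 UMIs and leaving out shallower cells, 352, 344 and 349 cells were left. The share was then 4.36% in GR18 and 3.44% in GR19. In GR17 it was 0 of 352 cells, with an exact upper limit of 1.04%.

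The smooth muscle genes were as scarce in single cells as in bulk. Acta2 gave 3, 1 and 3 UMIs in GR17, GR18 and GR19, Myh11 gave 1, 1 and 0, Cnn1 gave 0, 1 and 2, and Tagln gave 1, 2 and 2. No cell held more than 1 UMI of any of these genes. For Myh11, 0 of 362 cells in GR19 had an exact upper limit of 1.01%. For Cnn1, 0 of 369 cells in GR17 had one of 0.995%. These limits are on cells with a captured UMI, not on cells that express the gene.

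Mylk was higher in both SOX4KO libraries, with 22.0 CPM (18.8 to 25.6) in GR17, 44.3 (39.8 to 49.2) in GR18 and 51.2 (46.5 to 56.3) in GR19. The difference on the log2(CPM + 1) scale was 0.98 and 1.18, so that GR18 fell just short of the 2-fold rule. Sparc had 593 CPM in GR17, 1152 in GR18 and 595 in GR19, and thus was higher in one SOX4KO library and level with control in the other. The basal markers summed to 4258, 3904 and 2189 CPM in GR17, GR18 and GR19 and the luminal markers to 1948, 1981 and 2376 CPM. Krt5 had 1867, 1466 and 519 CPM and Krt14 1586, 1662 and 1019 CPM, and the part of these markers in the Sparc levels was not tested. Tagln2 (444, 322 and 296 CPM) was somewhat lower in both SOX4KO libraries. Cnn2 (316, 305 and 271 CPM) was level with control within counting error in GR18 (ratio 0.965, exact interval 0.912 to 1.02). In GR19 Cnn2 was somewhat lower (ratio 0.856, 0.808 to 0.907). Tagln2 differed by −0.46 and −0.58 on the log2 scale and Cnn2 by −0.05 and −0.22, where the bulk difference of both genes was positive and did not pass the test.

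Postn stood apart between the assays. It had 33.1, 29.8 and 16.2 CPM in GR17, GR18 and GR19, against 1500 to 4786 CPM in the bulk lines, while Sparc was at 593 to 1152 CPM against 732 to 5343 CPM. The assays differ in library chemistry and the labels do not tie their lines to each other, so these levels are set side by side without a test. The Postn that was captured sat in few cells. It was seen in 16.0%, 17.1% and 13.3% of cells, and the 10% of cells with most Postn UMIs held 91.4%, 89.1% and 91.0% of them, with up to 39 UMIs in a cell.

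Of the members, 5 reached a mean of 20 CPM over the single-cell libraries. On the log2(CPM + 1) scale 0 of them were at least 2-fold apart from control in both SOX4KO libraries. Of all 6303 genes at that mean level, 2.24% met the rule, 1.92% higher and 0.317% lower. The pseudocount decided this for Mylk, whose plain CPM ratios to control were 2.01 (exact interval 1.67 to 2.43) in GR18 and 2.32 (1.94 to 2.79) in GR19. Leaving out GR18 made it 1 gene, Mylk. Oxtr, with the largest ratio, was below this level in every library. Among the listed partners at that level, 0 of 25 contractile, 0 of 7 oxytocin signalling and 0 of 7 matricellular genes met the rule. Partners below that level were not counted, and those named next were picked after their values were seen. Plcb1 had 28, 68 and 80 UMIs in GR17, GR18 and GR19, ratios to control of 2.34 (exact interval 1.49 to 3.77) and 2.66 (1.71 to 4.24). Tgfbi had 3, 45 and 46 UMIs and Smoc2 0, 10 and 11, while Fbln1 went the other way, with 47, 3 and 0. Spp1 had 355, 492 and 937 CPM in GR17, GR18 and GR19, and Tpm2 62.1, 86.5 and 69.4 CPM.

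**Figure D3:**
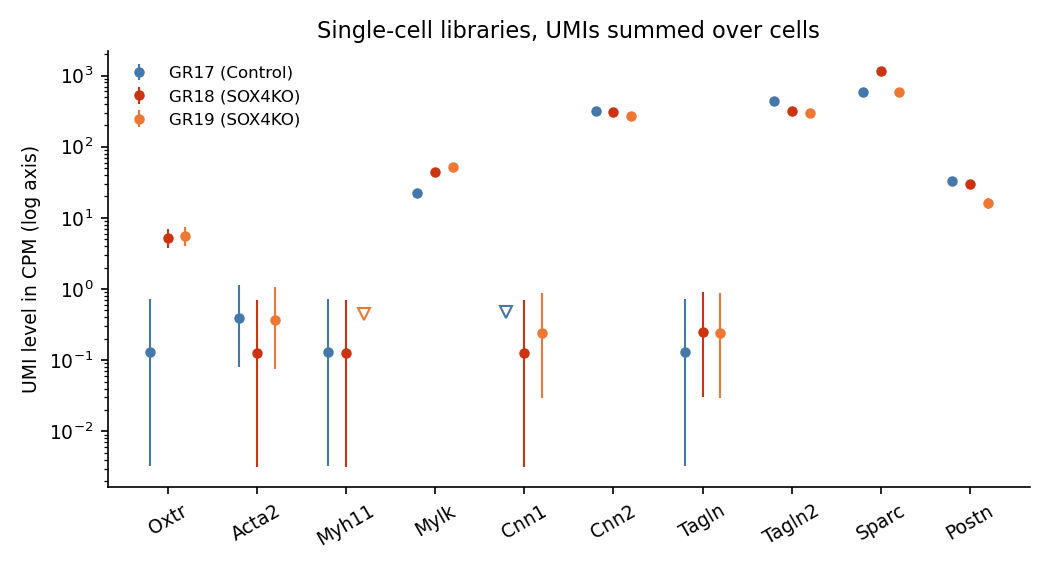
UMI level in CPM on a log axis for each member and single-cell library, summed over cells, with exact 95% Poisson intervals for counting error. Open triangles mark the upper bound where no UMI was seen; Oxtr is at 0.13 CPM in the control library and at 5.24 and 5.54 in the SOX4KO libraries, and Acta2, Myh11, Cnn1 and Tagln are below 0.4 CPM in all 3 libraries.

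The members were distributed unevenly over the cells. The 1100 cells were clustered without the 10 genes, which gave 6 clusters, called A to F. Cluster A held 347 cells, of which 330 came from the control library, so that library and cell state cannot be told apart there. Clusters B (220 cells), C (156) and F (108) came almost wholly from the SOX4KO libraries, and the medians of the basal markers were highest in B, F and C. On the log2 scale these medians were 0.85, 0.70 and 0.56 above the mean of the clusters. The mostly control cluster A was also above that mean, at 0.22. Krt5 was at 1988 CPM in A, against 1885 in B, 1400 in C and 1367 in F. Krt14 was at 1674 CPM in A, against 2747, 1466 and 1712 CPM. Clusters D (136) and E (133) were luminal-like, with luminal markers at a median of 1.13 and 1.53 on the log2 scale above the mean of the clusters. The cycling markers were lowest in B and E. Apart from Postn and Sparc, the genes that led cluster B included Ndrg1, Car12, Vegfa and Bnip3.

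Oxtr, Mylk, Sparc and Postn were each highest in cluster B. Oxtr had 18.2 CPM there and at most 2.15 CPM in any other cluster, and 68 of its 89 UMIs, 76.4%, fell in cluster B, which held 220 of the 1100 cells. Cells of cluster B had the fewest UMIs of the clusters (median 16097.5), yet 18.6% of them had an Oxtr UMI, against 2.21% in D and 3.76% in E, with medians of 28874.5 and 20010 UMIs. In C and F, the other clusters of SOX4KO cells with high basal markers, it was 3.21% and 4.63%, with medians of 24025.5 and 21350 UMIs, and in A it was 0.288%. The pattern was alike in both SOX4KO libraries, with 17.3 CPM in the 114 cells of GR18 and 20.3 CPM in the 97 cells of GR19. The 9 control cells of cluster B held no Oxtr UMI, at a median of 9325 UMIs. These cells are too few and too shallow to show whether control cells of this cluster lack Oxtr.

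Mylk had 80.7 CPM in cluster B and 20.3 to 44.4 CPM elsewhere. Sparc had 2138 CPM in B, 588 to 999 CPM in A, C and F, and 56.3 and 56.6 CPM in the luminal-like clusters D and E. Postn had 108 CPM in B and 1.48 to 17.7 CPM in the others. In the control library, 108 of the 255 Postn UMIs came from the 9 cells in cluster B.

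The cytoskeletal genes followed another pattern. Cnn2 was highest in C (413 CPM) and F (373 CPM) and lowest in D (153 CPM). Tagln2 was highest in A (451 CPM) and lowest in B (232 CPM), where the other 4 members peaked. Acta2, Myh11, Cnn1 and Tagln stayed at or below 0.507 CPM in all 6 clusters.

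**Figure D4:**
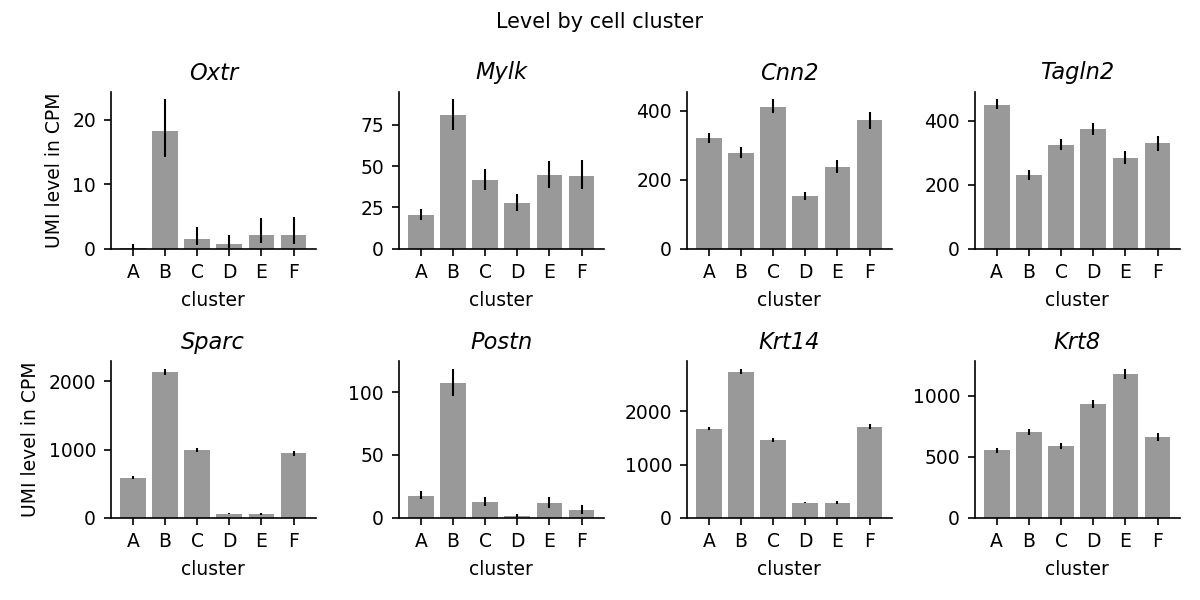
UMI level in CPM in each of 6 cell clusters for the 6 measurable members and for Krt14 (basal) and Krt8 (luminal), pooled over libraries, with exact 95% Poisson intervals. Oxtr, Mylk, Sparc and Postn peak in cluster B, Sparc and Krt14 are low in D and E where Krt8 is high, and Tagln2 is lowest in B.

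Cell by cell, Sparc followed the basal keratins most closely. Pearson r of log2(CPM + 100), averaged over the 3 libraries, was 0.67 with Krt14, 0.65 with Fam101b and 0.63 with Col17a1 over 1100 cells, and −0.53 with the luminal keratin Krt18. Krt14 is a keratin of the basal layer and Col17a1 a hemidesmosome collagen. The value for Krt14 was 0.68 in GR17, 0.72 in GR18 and 0.62 in GR19, so the control cells showed it as well. These cells share a library and differ in depth, and the values are descriptions.

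The genes most like the others were of different kinds. Cnn2 was most like the cytoplasmic actins Actg1 (0.58) and Actb (0.54) and the actin crosslinker Flna (0.49). Tagln2 was most like Ybx3 (0.36), Nars (0.34) and Eif5a (0.33), a nucleic acid binding protein and factors of protein synthesis. Mylk was most like Igfbp5 (0.34), Wwp2 (0.32) and Itm2b (0.30), and Postn like Thbs2, Igfbp5 and Col7a1 (0.38 each). For Oxtr, seen in few cells, the highest means were weak, with Ctsd (0.26), Igfbp5 (0.24) and Steap4 (0.24). These means include GR17, where Oxtr had 1 UMI and the values were 0.13, 0.11 and 0.083. In GR18 and GR19 the values were 0.33 and 0.32 for Ctsd, 0.29 and 0.33 for Igfbp5, and 0.30 and 0.33 for Steap4. Among the members, Sparc and Postn had 0.38, and Tagln2 was negative with Sparc (−0.23), Mylk (−0.26) and Postn (−0.20).

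Cells with an Oxtr UMI had more Sparc than the other cells of their library. Sparc was at 2725 CPM in the 27 cells of GR18 with Oxtr and 1020 CPM in the 342 without, and at 1204 CPM in the 32 cells of GR19 with Oxtr and 537 CPM in the 330 without. Median UMIs were alike, 21221 against 20101.5 in GR18 and 20036.5 against 22070.5 in GR19. Postn was at 85.3 CPM against 25.2 CPM in GR18 and 30.3 against 14.8 in GR19. Basal markers were higher in the cells with Oxtr as well. Krt14 was at 2606 against 1582 CPM in GR18 and 1186 against 1003 in GR19. Krt5 was at 2221 against 1402 CPM in GR18 and 724 against 499 in GR19. Trp63 was at 118 against 76.6 CPM in GR18 and 113 against 60.4 in GR19. Of the 9 fibroblast markers, 4 were seen in any library, and they summed to 12.1, 10.1 and 7.23 CPM in GR17, GR18 and GR19. Col1a2 and Dcn had no UMI in any cell, Col1a1 was at 3.22 CPM in the cells of GR18 with Oxtr and 4.60 without, and at 0 and 3.04 CPM in GR19, and Pdgfra was at 3.22 against 5.55 CPM in GR18 and 6.90 against 4.09 CPM in GR19. The part of these basal and fibroblast markers was not tested.

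The cells with a Postn UMI also had more Sparc, in control as in SOX4KO libraries, with 1021 CPM against 510 CPM in GR17, 2630 against 878 in GR18 and 1567 against 447 in GR19. Their Oxtr level was 17.6 CPM against 2.96 CPM in GR18 and 18.2 against 3.61 in GR19. In GR17 the single Oxtr UMI was in a cell that also held Postn. The basal keratins were higher in the cells with Postn too. Krt14 was at 1949 against 1516 CPM in GR17, 2794 against 1452 in GR18 and 1584 against 933 in GR19. Krt5 was at 2556 against 1734 CPM in GR17, 2006 against 1366 in GR18 and 861 against 467 in GR19. Beside these values, Col1a1 was at 35.3 CPM in the GR17 cells with Postn against 1.24 CPM without, at 4.00 against 4.59 CPM in GR18 and at 3.64 against 2.64 CPM in GR19. Pdgfra was at 8.02 against 4.79 CPM in GR17, 7.20 against 5.03 in GR18 and 5.47 against 4.17 in GR19. The part of the basal keratins, Col1a1 and Pdgfra in the Postn result was not tested.

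**Figure D5:**
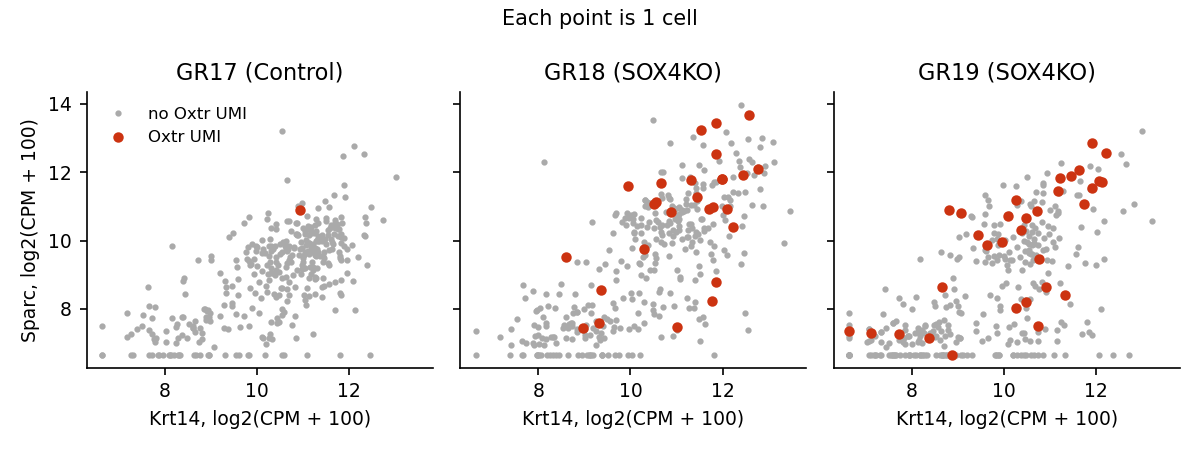
Sparc against Krt14 in each cell, both as log2(CPM + 100), in the 3 single-cell libraries, with cells that hold an Oxtr UMI in red. Sparc and Krt14 rise together in each library (r of 0.68, 0.72 and 0.62), and the red points number 1 in GR17, 27 in GR18 and 32 in GR19.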

How the data were processed

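Per the labels, bulk libraries were made with a directional kit and single-cell libraries by plate-based sequencing. For bulk, the authors deposited HTSeq read counts for Ensembl genes, and for single cells UMI counts by gene and well, all raw. Submitters' processing notes name STAR 2.4.2a and the builds NCBIM37 and mm9, without roles. Gene positions and exon lengths are from a GENCODE annotation of GRCm38, another build, and serve for description and RPKM only.

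The members and lists were chosen with earlier results of these data known. Counts were tested in edgeR 4.0.16 (filterByExpr, TMM, quasi-likelihood) under R 4.3.3, 2 control against 3 SOX4KO lines, with Benjamini-Hochberg adjustment over 11682 genes and calls at an adjusted p under 0.1. DESeq2 1.42.0 was an alternative. Reads outside genes or not unique stayed out of library sizes. Wells under 1000 UMIs (15, 15 and 22) and spike-in molecules were left out, and no doublet caller was run. Clusters used Seurat 5.3.0 (2000 variable genes, 10 principal components, resolution 0.5). Likeness candidates were genes seen in at least 10% of cells. Named genes were all members, lineage keratins with Trp63 and Sox4, called list genes and the 3 most alike genes per member. Scripts were tested on simulated data. Motifs were chosen after the promoter windows were in hand, and a TATA box and a TEAD-type motif that were also searched are left out of the text.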

Additional observations from a re-analysis of the deposited data

Results flagged for a closer look

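Wells left out for having fewer than 1000 UMIs still held UMIs of 2 members, above the 3 that a count of 0 allows. Sparc gave 5 UMIs in the wells left out of GR17, 6 in those of GR18 and 4 in those of GR19, and Tagln2 gave 6 UMIs in those of GR17. Each is small beside the 4572, 9226 and 4939 Sparc UMIs and the 3427 Tagln2 UMIs of the wells that were kept.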

How the results depend on the processing

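With 2 control lines, the bulk calls depended on single lines. Over the 5 leave-outs the number of members called ranged from 0 to 3, of contractile partners from 0 to 6, of oxytocin signalling genes from 0 to 1 and of matricellular genes from 0 to 5, and in the fits without a control line the lone control is assumed to vary like the SOX4KO lines, with 130 (without WT1) and 56 (without WT3) genes called in all, against 733 with all lines. An adjusted p under 0.05 kept 1 member, 1 contractile partner and 1 matricellular gene. DESeq2 called 3 members, 6 contractile partners, 1 oxytocin signalling gene and 5 matricellular genes, and edgeR with no filter beyond 1 count called 3, 7, 1 and 7, with 1686 genes called in all. DESeq2 size factors in edgeR left all 4 counts as they were. The fold change of Postn ranged from −0.28 to 1.10 over the leave-outs and reversed to −0.28 without WT3 and to −0.02 without M4. The cause of these moves was not tested. Those of Oxtr and Sparc remained positive in all bulk alternatives. In single cells, the number of members at least 2-fold apart ranged from 0 to 1 over the 2 leave-outs and was 0 under all other alternatives. Mitochondrial genes and Rn45s made up 15.1% and 6.01% of the UMIs in GR19, against 11.4% and 5.01% in GR17. With both out of the total, the log2 difference of GR19 moved from −0.22 to −0.14 for Cnn2 and from −0.58 to −0.50 for Tagln2. That of Sparc moved from 0.01 to 0.09. With resolution 0.3 or 20 principal components, Oxtr was at 18.8 and 18.5 CPM in the cluster where it was highest. With 10 in place of 100 CPM added, the likeness of Thbs2 to Postn was 0.26. No paired analysis was possible because the labels give the lines no replicate numbers that the groups share. Depth limited the scarce smooth muscle genes, which had at most 5 reads in a bulk line, and 1 control library leaves the single-cell differences without replicate error.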
